A study of Homo sapiens with 5 samples.

Results

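The Polycomb genes examined here were EZH2, SUZ12, EED, JARID2, BMI1, RNF2 and YY1, and the measurement was the presence of ChIP-seq peaks of ASXL1, FOXK1 and O-GlcNAc near their starts. ChIP-seq sequences the DNA that an antibody recovers from fixed chromatin, and a peak is a stretch where such tags exceed a control. A peak was counted for a gene when any base of it lay within 5 kb of the gene's start on the human genome build hg19. This rule took 35 peaks of the 194759 in the 3 lists, namely 15 of 94237 for ASXL1, 3 of 21697 for FOXK1 and 17 of 78825 for O-GlcNAc. No measured value entered the choice of the 7 genes, but they were proposed with earlier results of these data known.

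The chromatin was that of Flp-In HEK293 T-REx, a derivative of the human embryonic kidney line HEK293 that carries a recombination site for transgenes and a tetracycline repressor. The labels name no transgene or treatment for any of the 5 libraries. ASXL1 and O-GlcNAc were precipitated from chromatin preparation 63 and FOXK1 from preparation 62, each called against the input of its own preparation. With 1 library per antibody, differences have no replicate check, no p-value was computed, and an effect of the FOXK1 antibody cannot be told apart from one of its preparation. Sequencing depth is unknown. Each peak's score is the authors' own, from their peak caller, and is compared only within a list.

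Polycomb proteins keep genes silent through 2 kinds of complex. Polycomb repressive complex 2, in which EZH2 is the methyltransferase and SUZ12 and EED are its required partners, methylates histone H3, and JARID2 helps to bring it to DNA. In Polycomb repressive complex 1, RNF2 (also called RING1B) is the enzyme that attaches ubiquitin to histone H2A and BMI1 is a partner that stimulates it, while YY1 is a zinc finger protein that binds DNA and is related to the fly Polycomb protein Pleiohomeotic. ASXL1 works with the deubiquitinase BAP1, which removes the ubiquitin that RNF2 attaches. FOXK1 is a forkhead transcription factor, and O-GlcNAc is a sugar that the enzyme OGT, whose gene in flies is itself a Polycomb gene, adds to nuclear proteins.

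All 7 genes had an ASXL1 peak and an O-GlcNAc peak within 5 kb of the start, and at each of the 7 an ASXL1 peak overlapped an O-GlcNAc peak. FOXK1 had a peak at 3 of the 7, JARID2, BMI1 and RNF2, and there it overlapped peaks of both other lists. EZH2, SUZ12, EED and YY1 had no listed FOXK1 peak within 5 kb. For comparison, chromosomes 1 to 22 and X were tiled into 303451 windows of 10 kb, of which 20% held an ASXL1 peak, 20.8% an O-GlcNAc peak, 6.38% a FOXK1 peak and 2.94% peaks of all 3. These windows are not gene starts, because starts of all genes on hg19 were not used here. The counts therefore set the 7 genes against the genome at large and not against other promoters. Among windows with a peak of at least 1 other list, 43.8% held an ASXL1 peak, 45.3% an O-GlcNAc peak and 15.1% a FOXK1 peak. Among windows with peaks of both other lists the shares were 77.3%, 75.5% and 31.7% in the same order. The Wilson interval of 7 of 7 genes, 64.6% to 100%, lies above the shares of 43.8% and 45.3% and holds those of 77.3% and 75.5%. The windows of the higher shares also held a FOXK1 peak, as 3 of the 7 genes did. None of these windows were chosen as gene starts, and the 7 genes are not a random sample. The interval therefore does not test whether Polycomb genes differ from other promoters.

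The FOXK1 count lay at the share seen at like places. Among 12777 windows of 10 kb centred on an ASXL1 peak in the upper 20% of scores that overlapped an O-GlcNAc peak, 43% held a FOXK1 peak, and the share of the 7 genes was 42.9% (3 of 7, 95% Wilson interval 15.8% to 74.95%). The peaks nearest the 7 starts all belong to this kind of place. The interval covers counting error only, and it is wide because there are 7 genes. The count also depends on the span, as 1 gene had a FOXK1 peak within 1 kb. The FOXK1 peak counted for BMI1 lay 3917 bp from its start, nearer to the neighbouring gene COMMD3. This kind of window was chosen after the data had been seen.

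**Figure D1:**
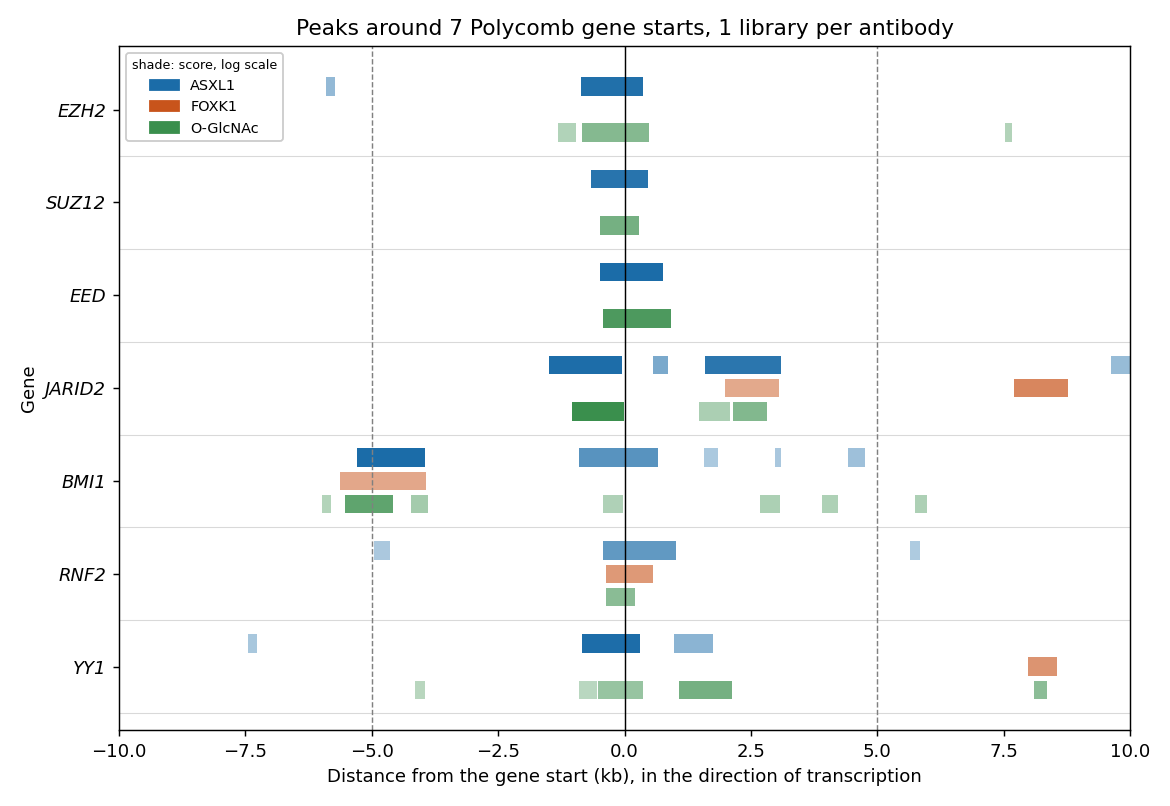
Peaks of ASXL1, FOXK1 and O-GlcNAc around the 7 gene starts, with distance from the start in kb on the horizontal axis (positive in the direction of transcription), 1 band per gene and darker shades for higher scores; dashed lines mark 5 kb. ASXL1 and O-GlcNAc bars meet at or beside the start of all 7 genes, and FOXK1 bars within the dashed lines appear at JARID2, BMI1 and RNF2.

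The 3 core subunits of Polycomb repressive complex 2 shared a simple layout, with 1 ASXL1 peak and 1 overlapping O-GlcNAc peak over the start. At EED, the subunit that binds methylated histone H3 and thereby stimulates the enzyme, the ASXL1 peak ran from 484 bp upstream to 754 bp downstream of the start (chromosome 11, positions 85955322 to 85956560, hg19). Its score was 1151.42, higher than 96.6% of the ASXL1 list. The O-GlcNAc peak at EED was 1346 bp wide and scored 646.34, higher than 97.2% of its list. EED thus had the highest ASXL1 score of the 7 start peaks and the O-GlcNAc score next below that of JARID2.

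At SUZ12, which holds the complex together, the ASXL1 peak covered the start at positions 30263381 to 30264515 of chromosome 17 with a score of 779.9. The O-GlcNAc peak at SUZ12 lay wholly inside it, was 775 bp wide and scored 251.53. Their centres were 2 bp apart, the smallest offset of the 7 genes. No other peak of any list lay within 5 kb of the SUZ12 or EED start.

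At EZH2, the catalytic subunit, the ASXL1 peak covered the start at positions 148581067 to 148582292 of chromosome 7 and scored 887.77, higher than 95.1% of its list. The O-GlcNAc peak over the EZH2 start was of like width (1337 against 1226 bp) and scored 173.48, higher than 89.4% of its list. A further O-GlcNAc peak, 960 bp upstream of the start, scored 60.57 and overlapped no other list. The nearest listed FOXK1 peaks lay 56.2 kb from the start of EZH2, 57.2 kb from that of EED and 78.6 kb from that of SUZ12, each over peaks of both other lists.

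The stretches before the starts of EZH2 and EED are shown because these genes had start peaks of ASXL1 and O-GlcNAc without FOXK1 and because the sequences differ. They are the 250 bases before the first listed start in RefSeq, build GRCh38.p14, read 5′ to 3′ along the gene, at chr7:148884292-148884541 (minus strand) and chr11:86244503-86244752 (plus strand). Capitals mark matches to the CCAAT box (CCAAT, or ATTGG on the other strand) and to the 10-base core of the NRF1 motif, on either strand.
EZH2: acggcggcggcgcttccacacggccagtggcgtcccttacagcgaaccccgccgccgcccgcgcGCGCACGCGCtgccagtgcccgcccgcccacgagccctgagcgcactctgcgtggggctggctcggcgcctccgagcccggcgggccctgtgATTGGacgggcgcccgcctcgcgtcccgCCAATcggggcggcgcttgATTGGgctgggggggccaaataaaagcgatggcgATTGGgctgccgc
EED: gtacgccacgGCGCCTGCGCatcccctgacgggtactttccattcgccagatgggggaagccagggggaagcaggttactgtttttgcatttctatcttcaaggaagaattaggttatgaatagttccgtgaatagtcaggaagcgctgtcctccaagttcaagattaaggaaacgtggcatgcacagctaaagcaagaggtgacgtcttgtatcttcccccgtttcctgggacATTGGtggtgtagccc
EZH2 held 4 CCAAT boxes, in forward or reverse direction, within the 94 bases next to its start. At least 4 were found in 0.874% of the 35116 RefSeq promoters of the same length, and at least 1 in 32%. The cut-off of 4 was the count seen at EZH2 in a search of 9 motifs, so the share is a description and not a test. The stretch before EED held 1 CCAAT box, and both stretches held 1 NRF1 match, found in 5.07% of promoters. EED also stood apart in base composition, with 51.2% G or C and 11 CG pairs against 75.6% and 38 for EZH2. A match is a run of letters and not a measured site.

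JARID2 had the highest O-GlcNAc score of the 7 genes. Its O-GlcNAc peak (chromosome 6, positions 15245482 to 15246509) scored 1979.57, which ranked 293 in a list of 78825, and ended 18 bp upstream of the start used. The overlapping ASXL1 peak was 1438 bp wide, scored 959.69 and ended 52 bp upstream of that start. RefSeq lists a divergent transcript, JARID2-DT, 695 bp upstream of its first JARID2 start on the opposite strand in GRCh38.p14. The peak edges are from the start used on hg19, and the builds were not converted, so the pair was not placed against the JARID2-DT start. JARID2 was the only gene of the 7 whose start, as used here on hg19, was covered by neither ASXL1 nor O-GlcNAc. Both peaks ended within 52 bp of it, and whether they cover the first start that RefSeq lists was not tested.

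A further cluster lay downstream of the JARID2 start and held all 3 lists. The ASXL1 peak there ran from 1583 to 3093 bp downstream and scored 715.78. The FOXK1 peak ran from 1981 to 3057 bp downstream (positions 15248508 to 15249584) and scored 100.16, higher than 66.2% of the FOXK1 list. A pair of adjoining O-GlcNAc peaks, with scores of 70.56 and 185.11, overlapped both of them. Between the clusters an ASXL1 peak with a score of 146.9, 571 bp downstream of the start, overlapped no other list. The O-GlcNAc score was thus 1979.57 upstream and at most 185.11 in the downstream cluster, while the ASXL1 scores were 959.69 and 715.78. In the tiled windows, 3 or more ASXL1 peaks, as at JARID2, occurred in 2.72% and 3 or more O-GlcNAc peaks in 1.04%.

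RefSeq lists another JARID2 start 2786 bp downstream of the first and the start of the antisense gene JARID2-AS1 2627 bp downstream, both in GRCh38.p14. The 250 bases before the downstream JARID2 start, chr6:15248605-15248854 (plus strand), are shown because that distance falls within the span of the downstream FOXK1 peak. The distances come from different builds and were not converted. Capitals mark matches to the cyclic AMP response element TGACGTCA, which reads the same on both strands.
JARID2: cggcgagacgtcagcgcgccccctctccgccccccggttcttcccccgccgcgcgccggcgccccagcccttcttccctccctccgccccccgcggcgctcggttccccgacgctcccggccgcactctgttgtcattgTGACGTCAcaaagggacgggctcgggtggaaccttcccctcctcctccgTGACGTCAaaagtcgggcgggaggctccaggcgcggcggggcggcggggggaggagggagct
The stretch held 2 such elements, starting 111 and 62 bases before the start. At least 2 were found in 0.0541% of RefSeq promoters and at least 1 in 1.65%. The cut-off of 2 was likewise the count seen in this stretch, so the share is no test of rarity.

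RNF2 was the only gene of the 7 whose start was covered by a peak of each list. The FOXK1 peak ran from 366 bp upstream to 554 bp downstream (chromosome 1, positions 185014185 to 185015105) and scored 155.67, the highest of the 3 FOXK1 peaks near these genes and higher than 82.4% of its list. The O-GlcNAc peak was 576 bp wide and scored 153.11. The ASXL1 peak was wider, at 1442 bp, but its score of 243.83 was the lowest of the 7 ASXL1 start peaks. It was still higher than 84.6% of the ASXL1 list. An ASXL1 peak 4642 bp upstream of RNF2 had a score of 54.8 and overlapped no other list.

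The stretch before the RNF2 start (250 bases, chr1:185045308-185045557 of GRCh38.p14, plus strand) is printed as the place where the 3 targets met at a start. It held no match to any of the 9 motifs searched.
RNF2: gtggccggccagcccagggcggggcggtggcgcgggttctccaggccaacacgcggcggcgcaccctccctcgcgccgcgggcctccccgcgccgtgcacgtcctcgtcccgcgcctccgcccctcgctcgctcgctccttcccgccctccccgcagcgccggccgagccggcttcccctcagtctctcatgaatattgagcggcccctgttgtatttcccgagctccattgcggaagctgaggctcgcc
The forkhead motif searched was TGTTTAC, or GTAAACA on the other strand. It occurred in 2.98% of RefSeq promoters and in none of the 250-base stretches listed for the 7 genes, which says only that these letters are not in those windows. The stretch before RNF2 had 74.4% G or C and 34 CG pairs, against medians of 58% and 11 over all RefSeq promoters.

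BMI1 had the most peaks, 5 of ASXL1, 5 of O-GlcNAc and 1 of FOXK1, and the strongest of them lay away from its start. The ASXL1 peak over the start (chromosome 10, positions 22609233 to 22610793) was the widest of the 7 start peaks at 1561 bp and scored 289.67. The O-GlcNAc peak beside the start ended 35 bp upstream and scored 63.53, above 42.3% of its list and the lowest of the 7 start peaks. At the upstream limit of the 5 kb span stood a cluster of all 3 lists. There the ASXL1 peak, from 5292 to 3953 bp upstream, scored 1455.21, and the FOXK1 peak, from 5615 to 3917 bp upstream (positions 22604524 to 22606222), scored 104.06. A pair of O-GlcNAc peaks in that cluster scored 421.78 and 84.66.

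RefSeq places the start of COMMD3, the neighbouring gene on the same strand, and of the readthrough transcript COMMD3-BMI1, 4711 bp upstream of BMI1 in GRCh38.p14. The upstream cluster was thus nearer to that start than to the BMI1 start itself, and the FOXK1 peak counted for BMI1 belongs to it. The 250 bases before the COMMD3 start, chr10:22316138-22316387 (plus strand), are shown for that reason, with the E-box CACGTG in capitals.
COMMD3: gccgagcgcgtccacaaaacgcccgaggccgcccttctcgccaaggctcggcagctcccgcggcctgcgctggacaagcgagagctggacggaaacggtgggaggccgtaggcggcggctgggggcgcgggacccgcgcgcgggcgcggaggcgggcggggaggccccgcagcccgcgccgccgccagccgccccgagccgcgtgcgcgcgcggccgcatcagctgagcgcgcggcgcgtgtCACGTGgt
An E-box began 8 bases before the COMMD3 start and 70 bases before the first listed BMI1 start, and the motif was found in 6.34% of RefSeq promoters. Downstream of the BMI1 start, 3 ASXL1 peaks scored between 53.2 and 70.58, and 2 O-GlcNAc peaks scored 69.06 and 65.42. In the tiled windows, 5 or more ASXL1 peaks occurred in 0.754% and 5 or more O-GlcNAc peaks in 0.0554%. The counts of 5 at BMI1 include the peaks of the cluster nearer to COMMD3.

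YY1 had a strong ASXL1 start peak and an O-GlcNAc pattern that was higher inside the gene. The ASXL1 peak over the start (chromosome 14, positions 100704270 to 100705412) scored 964.7, higher than 95.7% of the list. The O-GlcNAc peak over the start scored 113.12, and the one 1083 bp downstream scored 252.73. The ASXL1 peak under that downstream O-GlcNAc peak scored 101.69, so the 2 targets had their higher scores at different places. Another O-GlcNAc peak, with a score of 50.34, overlapped the upstream part of the ASXL1 start peak, and 1 at 3948 bp upstream scored 52.92 and overlapped no other list. In the tiled windows, 4 or more O-GlcNAc peaks, as at YY1, occurred in 0.244%. RefSeq lists the divergent transcript YY1-DT 523 bp upstream of YY1 in GRCh38.p14.

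Set side by side, the start peaks of the 7 genes had scores from 243.83 to 1151.42 for ASXL1 and from 63.53 to 1979.57 for O-GlcNAc. ASXL1 scores formed a group of 5 genes between 779.9 and 1151.42 (EED, YY1, JARID2, EZH2 and SUZ12) and a pair below 300 (BMI1 at 289.67 and RNF2 at 243.83). This split holds only for the peak nearest the start, since within 5 kb BMI1 had the highest ASXL1 score of the 7 genes, 1455.21, in the cluster nearer to COMMD3. O-GlcNAc ran in another order, from JARID2 at 1979.57 and EED at 646.34 through SUZ12, EZH2, RNF2 and YY1 to BMI1 at 63.53. Spearman's rho between the orders was 0.46 over 7 genes, a description of points that share a chromatin preparation and an input. With 1 library per antibody the error of a score is not known, so neighbours in these orders, such as YY1 at 964.7 and JARID2 at 959.69, cannot be called different.

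**Figure D2:**
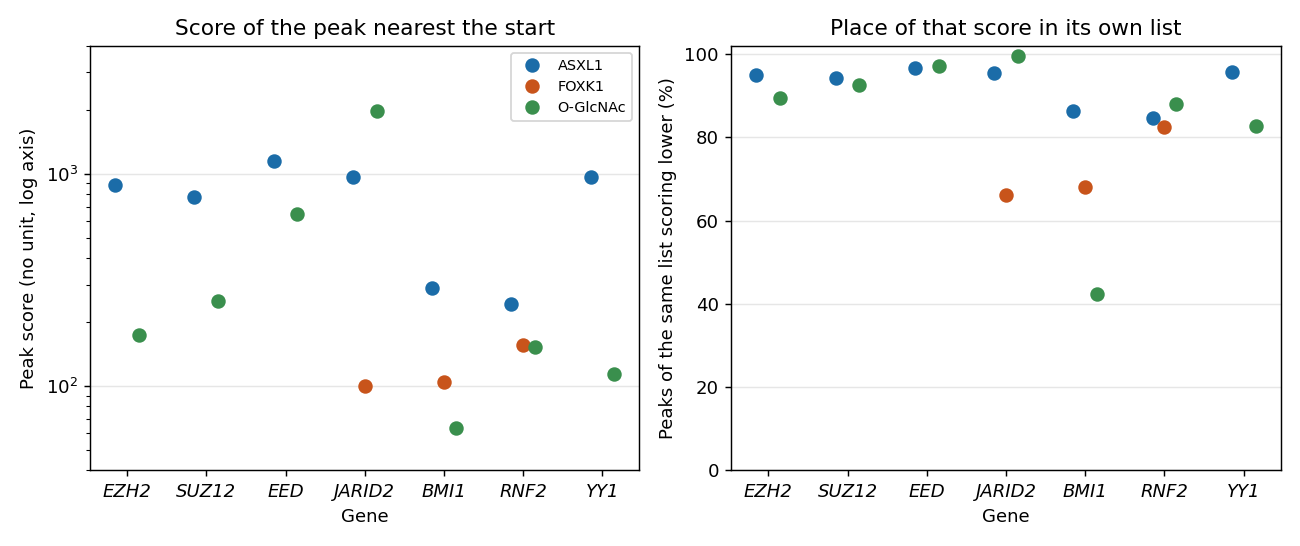
Score of the peak nearest each gene start within 5 kb (left, logarithmic axis) and the percentage of the same list that scored lower (right), 1 point per gene and list, with 1 library per list. ASXL1 points lie between 84.6% and 96.6% of their list, O-GlcNAc points between 42.3% (BMI1) and 99.6% (JARID2); the FOXK1 points of JARID2 and BMI1 are peaks 1981 and 3917 bp from the start.

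The ASXL1 and O-GlcNAc peaks nearest a start sat at the same place. The overlap took between 94.6% and 100% of the shorter peak at each gene, and the centres were between 2 and 372 bp apart, the widest offset being that of RNF2. Sonicated chromatin fragments averaged 150 to 400 bp per the labels' protocols, so these offsets are within or below a fragment's length. Start peaks were wide for their lists, with a median of 1239 bp for ASXL1 and 890 bp for O-GlcNAc against 269 and 231 bp over the whole lists.

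Set against places elsewhere that held a peak, the highest ASXL1 and O-GlcNAc scores near each gene were in the upper part of the range. The highest ASXL1 score within 5 kb exceeded that of 78.2% of the 60547 windows with an ASXL1 peak at RNF2, and of 90.7% to 96.3% at the other 6 genes. For O-GlcNAc the range was 85.2% of 63173 windows at RNF2 to 99.5% at JARID2. At BMI1 the highest scores of both lists were those of the cluster nearer to COMMD3, and its O-GlcNAc start peak stood above 42.3% of its list. The FOXK1 scores were higher than 63.5% of 19352 windows at JARID2, 65.4% at BMI1 and 80.4% at RNF2.

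Overlap between lists was counted over all 35 peaks. Of the 15 ASXL1 peaks, 11 overlapped an O-GlcNAc peak (73.3%, Wilson interval 48.0% to 89.1%), where the whole list gives 22.4% and peaks of the list in the same score classes, of 10 equal classes, give 51.1%. ASXL1 peaks were met by 14 of the 17 O-GlcNAc peaks (82.4%, interval 59.0% to 93.8%), where the list gives 27.1% and the same score classes 50.2%. The ASXL1 interval holds the share of equally scored peaks, and the O-GlcNAc interval lies above it. Peaks beside 1 start share their place, and at JARID2, BMI1 and YY1 a pair of O-GlcNAc peaks met the same ASXL1 peak. These intervals are therefore too narrow, and a difference from equally scored peaks was not tested. FOXK1 overlapped 3 of the 15 ASXL1 peaks (20%, interval 7.05% to 45.2%), where the list gives 10.5% and the same score classes 20.1%. It overlapped 5 of the 17 O-GlcNAc peaks (29.4%, interval 13.3% to 53.1%), where the list gives 11.1% and the same score classes 20.7%. Both intervals hold the share of equally scored peaks. All 3 FOXK1 peaks overlapped both other lists, where the FOXK1 list gives 42.3% for ASXL1 and 37.8% for O-GlcNAc and the same score classes give 54.8% and 48.6%. The Wilson interval of 3 of 3 is 43.9% to 100% and holds the shares of equally scored FOXK1 peaks.

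The peaks that overlapped no other list had lower median scores and widths than those that did, with some exceptions. The 4 such ASXL1 peaks, at JARID2, BMI1 (2) and RNF2, scored between 53.2 and 146.9 and were 291 to 332 bp wide, against a median score of 779.9 and a median width of 1239 bp for the 11 that overlapped. The 3 such O-GlcNAc peaks, at EZH2, BMI1 and YY1, scored between 52.92 and 65.42, against a median of 163 for the 14 that overlapped, and were 187 to 359 bp wide, against a median of 720.5 bp. Their median widths, 305.5 bp for ASXL1 and 315 bp for O-GlcNAc, were above the medians of 269 and 231 bp over the whole lists. The ranges also overlapped, as the ASXL1 peak at 2979 bp downstream of BMI1, with a score of 56.54 and a width of 125 bp, and the O-GlcNAc peak at YY1 with a score of 50.34 both met the other list.

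Peaks of ASXL1 and O-GlcNAc were densest within 1 kb of the starts. Within 1 kb there were 8 peak centres of each, or 0.571 per kb, with at least 1 at each of the 7 genes. From 2 to 5 kb there was 0.119 per kb for each list, and from 5 to 10 kb 0.0571 for ASXL1 and 0.0714 for O-GlcNAc. Beyond 10 kb the density did not decline steadily. ASXL1 had 0.0929 per kb from 10 to 20 kb, with 13 centres at 6 genes, and 0.0500 from 20 to 30 kb, while O-GlcNAc had 0.0500 and 0.0643. The densities over chromosomes 1 to 22 and X were 0.0310 per kb for ASXL1 and 0.0259 for O-GlcNAc. FOXK1 had 1 centre within 1 kb, at RNF2 (0.0714 per kb), 2 from 2 to 5 kb (0.0476) and 2 from 5 to 10 kb (0.0286). It had 1 centre from 10 to 20 kb and 2 from 20 to 30 kb, and its density over chromosomes 1 to 22 and X was 0.00708 per kb.

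**Figure D3:**
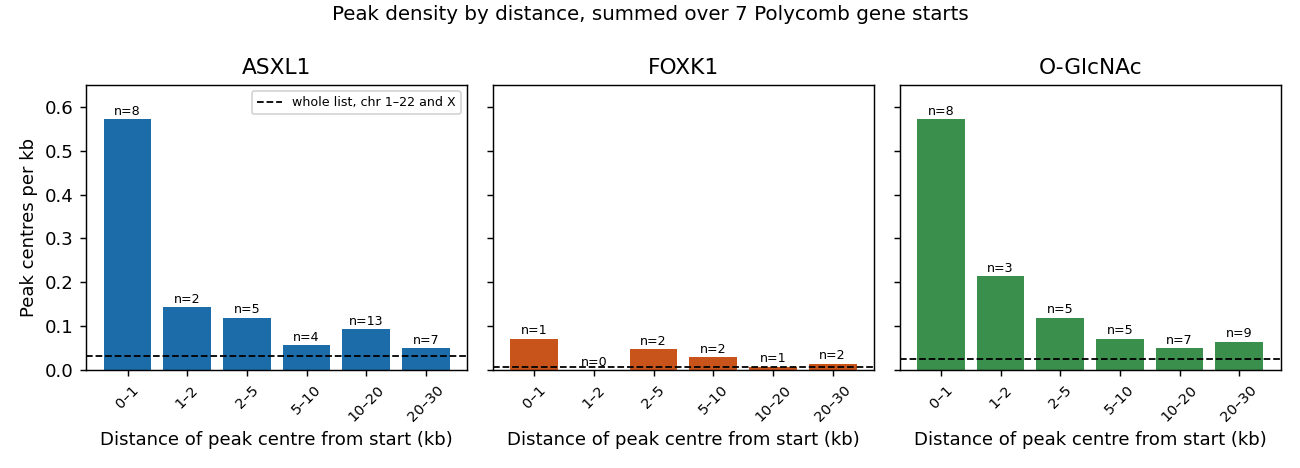
Peak centres per kb, summed over the 7 gene starts, by distance of the centre from the start in kb, with 1 panel per list, the number of centres above each bar and the density of the whole list on chromosomes 1 to 22 and X as a dashed line. ASXL1 and O-GlcNAc are highest within 1 kb, at 0.571 per kb with 8 centres each, and FOXK1 has 1 centre there.

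The limit of 5 kb decided a few memberships. Just inside it lay the weak ASXL1 peaks at 4642 bp (RNF2) and 4417 bp (BMI1) and the O-GlcNAc peak of the cluster upstream of BMI1, at 4584 bp. Just outside lay ASXL1 peaks at 5644 bp from RNF2 (score 50.82) and 5718 bp from EZH2 (score 87.44), and O-GlcNAc peaks at 5742 and 5808 bp from BMI1 (scores 68.14 and 58.25). For FOXK1 the next peaks out were at 7691 bp from JARID2 (score 256.13) and 7972 bp from YY1 (score 174.74). The FOXK1 peak beyond the limit at JARID2 scored higher than the one inside it.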

How the data were processed

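The data were 3 peak lists, 1 per antibody. The submitters' processing notes name Bowtie2 2.0.0, MACS 1.4 and build hg19, and the labels pair each list with the input of its chromatin preparation. Other settings and the depth are not given in the sources used here. The deposited score per peak is the authors' caller value, with the form of a scaled negative logarithm of a p-value and a lowest value of 50. The 2 inputs were not analysed here.

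Gene starts on hg19 came with the definition of the gene set, and strands are from general annotation. Peaks within 5 kb of a start (any base) were taken, and lists overlapped from 1 bp. Shares have 95% Wilson intervals (scipy 1.17.1, Python 3.11.15), which cover counting error only and not the spread between libraries, of which each antibody had 1. Base rates came from 10 kb windows up to the highest peak end per chromosome. Windows with peaks of both other lists, and those on high ASXL1 peaks, were chosen after the data had been seen. The cut-offs for several peaks per window and for repeated motifs were set to the counts seen at these genes. For the score classes (10 of equal size per list), list shares were weighted by the genes' peaks per class. Promoter sequences are RefSeq's (GRCh38.p14), matched for all 7 symbols, with 250 bases before each start searched for 9 motif strings, namely forkhead, YY1, NRF1, ETS, CCAAT box, E-box, CRE and a pair of E2F strings.

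The overlap code was checked on simulated peaks. All 7 genes are named, with every peak within 5 kb. The genes and lists were chosen with earlier results of these data known. The lists hold no expression values, so the cell line label was not checked. Other Polycomb genes, which need starts on hg19, were not analysed here.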

Additional observations from a re-analysis of the deposited data

How the results depend on the processing

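No paired analysis was possible because the series has 1 library per antibody, which also leaves no replicate to omit. Starts of all genes as a base rate were not run. The counts of genes with an ASXL1 peak (6 or 7) and an O-GlcNAc peak (7) held under each distance and score alternative, and RNF2 was the gene lost when the 10000 highest-scoring ASXL1 peaks were kept. That setting also dropped both start peaks of BMI1, which stayed counted through the cluster nearer to COMMD3, and the O-GlcNAc peak over the YY1 start, where the peak 1083 bp downstream kept the gene. Other counts moved. Within 1 kb there were 9 ASXL1, 9 O-GlcNAc and 1 FOXK1 peaks, 1 gene with FOXK1 and 1 gene with all 3 lists. Within 2 kb there were 11 O-GlcNAc peaks, and within 10 kb 5 FOXK1 peaks. A score of at least 100 left 9 O-GlcNAc peaks, of which 100% overlapped another list. The 10000 highest-scoring peaks left 7 ASXL1 and 8 O-GlcNAc peaks. Fewer peaks follow from a narrower span or a shorter list. At a score of at least 100, BMI1 kept O-GlcNAc only through the cluster nearer to COMMD3. The overlap definitions left each share within its interval.

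The base rate changed with the places compared, the only choice varied for it. Among windows with a peak of at least 1 other list it was 43.8% (ASXL1), 15.1% (FOXK1) and 45.3% (O-GlcNAc). Among windows with peaks of both other lists it was 77.3%, 31.7% and 75.5%, and on high ASXL1 peaks that overlap O-GlcNAc it was 43% for FOXK1. Of 73 alternative values, 55 stayed within 1.5 times the reported count or, for shares, within its Wilson interval. Depth is unknown, so a gene without a listed FOXK1 peak is not shown to lack FOXK1.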

Other observations

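Within 30 kb of the starts lay further places where lists met, outside the 5 kb span. At BMI1 such a place lay upstream, where a FOXK1 peak 25767 bp from the start scored 190.85 and overlapped an ASXL1 peak (score 264.6) and an O-GlcNAc peak (score 202.82). This FOXK1 score was higher than the 104.06 of the FOXK1 peak within 5 kb of BMI1. Downstream of BMI1, at 19004 bp, stood an ASXL1 peak with a score of 1516.07, above every ASXL1 score within 5 kb of the 7 starts. It overlapped an O-GlcNAc peak with a score of 287.71 and no FOXK1 peak.

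Downstream of the JARID2 start, at 14147 bp, a FOXK1 peak with a score of 270.6 stood above 93% of the FOXK1 list. The ASXL1 peak it overlapped scored 59.04, above 23.9% of its list, and the O-GlcNAc peak scored 60.69, above 34.9%. In the cluster nearer the start the FOXK1 peak stood above 66.2% of its list and the ASXL1 peak above 93.7%. The FOXK1 peak 7691 bp downstream of JARID2, with a score of 256.13, overlapped no other list. At YY1, 23857 bp upstream, an ASXL1 peak with a score of 856.27 overlapped an O-GlcNAc peak with a score of 216.2. These places were picked after their values had been seen, and no test was made.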
